A study of Mus musculus with 4 samples.

Results

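Motile cilia are moved by axonemal dyneins, motor complexes that stand in an outer and an inner row on the microtubule doublets of the axoneme. The genes described here encode these dynein arms and the structures around them. Members were all genes whose symbol begins with *Dnah*, *Dnaic*, *Dnai*, *Dnal*, *Dnaaf*, *Drc*, *Rsph*, *Cfap* or *Tekt* followed by a number, together with *Dnali1*, and the rule finds 51 of the 24421 genes in the deposited values. RNA-seq values were available for 4 libraries from cells of the main olfactory epithelium (MOE) sorted by fluorescence. Cells with and without GFP were sorted from the TAAR enhancer 1-GFP transgenic line, and cells with and without tdTomato from the TAAR enhancer 2-tdTomato transgenic line, with 1 library for each group.

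The labels give the strain of both lines as C57BL/6, while the study's reporting summary describes its mouse lines as mixed C57BL/6J and 129. Reporter-negative cells carry the same transgene as reporter-positive cells of their line. In each transgene 1 of the enhancers of the trace amine-associated receptor (*Taar*) cluster drives the reporter through the Hsp68 minimal promoter, and the study kept a single founder of each line. The labels give the mice as adult, while the study's reporting summary gives early postnatal ages, and no source used here says how many mice went into a library. Since each group is a single library, differences could not be set against replicates, and no test was run. Values are TPM, transcript numbers corrected for transcript length and scaled to a total of 1000000 in each library. TPM can be compared between genes, but it does not tell how many reads were counted. Fold changes are log2 ratios of TPM + 1, a scale on which changes at low TPM appear smaller than they are. "Higher" or "lower" in a count means a difference of at least 2-fold on this scale. Where 4 values follow each other, they are those of GFP-negative, GFP-positive, tdTomato-negative and tdTomato-positive cells, in this order.

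In the outer dynein arm of airway cilia, the heavy chain *Dnah5* is paired with *Dnah11* near the base and with *Dnah9* toward the tip. Inner arms use other heavy chains. Intermediate and light chains complete the motors, the *Dnaaf* proteins fold and assemble them in the cytoplasm, and the nexin-dynein regulatory complex and the radial spokes transmit control signals from the central pair of microtubules. In the nose, motile cilia of this kind are carried by multiciliated cells of the respiratory epithelium, while the cilia of olfactory sensory neurons (OSNs) have an axoneme but are generally described as immotile and without dynein arms.

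The reporter-positive library of the TAAR enhancer 2-tdTomato line had far more of these transcripts than its reporter-negative library, whereas members in the TAAR enhancer 1-GFP line were divided between higher and lower ones. In tdTomato-positive cells, 38 of the 50 members above 0 TPM were higher, and 16.2% of all genes passed the same rule. None of the 50 was lower there, against 21.9% of all genes. In GFP-positive cells, 19 of 50 were higher and 9 were lower, whereas 12.8% of all genes were higher and 40.5% were lower. At least 4-fold higher were 27 members in tdTomato-positive cells, beside 7.72% of all genes, and 12 in GFP-positive cells, beside 6.63%. No member was at least 4-fold lower in either line, where 10.7% (tdTomato) and 15% (GFP) of all genes were. *Rsph6a*, the member not counted, was listed at 0 in all 4 libraries. Because these are bulk libraries, fewer cells of a type and less RNA per cell cannot be told apart.

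The median log2 fold change of the members was 2.15 in the TAAR enhancer 2-tdTomato line and 0.54 in the TAAR enhancer 1-GFP line, beside medians over all genes of -0.19 and -0.74. Relative to these all-gene medians, 48 of 50 members were above in the TAAR enhancer 2-tdTomato line and 38 of 50 in the TAAR enhancer 1-GFP line. The scaling of the libraries matters more in the TAAR enhancer 1-GFP line, where the 10 genes with the highest values held 31.5% of all TPM in GFP-positive cells. There, a median-ratio scaling moved the all-gene median by 0.74 and gave 28 higher members and 1 lower member, with 20.4% of all genes higher and 19.6% lower. Rescaling without the highest genes moved it by 0.43 and gave 26 and 2 members, with 17% and 26.9% of all genes. Scaling to mature OSN markers moved it by 2.59 and gave 48 and 0 members, with 72.9% and 7.18% of all genes. The same scalings of the TAAR enhancer 2-tdTomato line moved the all-gene median by 0.13, 0.05 and 0.82, and 40, 39 and 47 members were higher and 0 lower, while 17.4%, 17% and 34.3% of all genes were higher and 18.8%, 21.1% and 12.1% were lower.

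**Figure D1:**
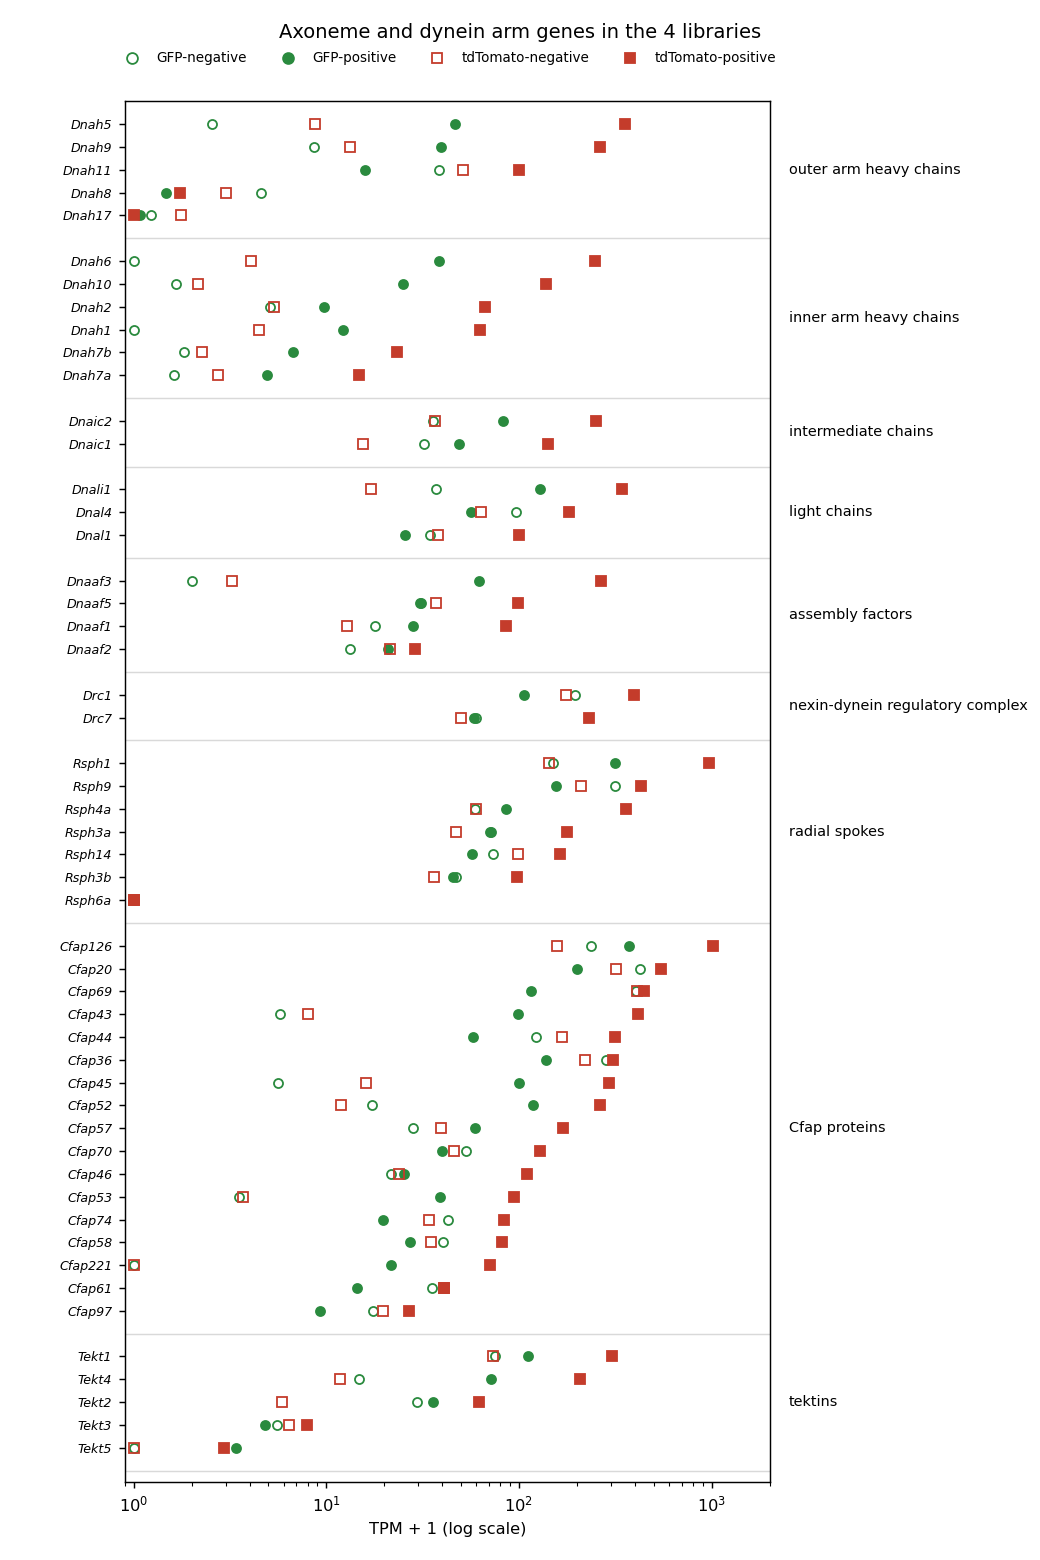
TPM + 1 on a log scale for each of the 51 members in the 4 libraries, grouped by role. Open symbols are reporter-negative and filled symbols reporter-positive cells. The filled squares of tdTomato-positive cells lie farthest to the right for most members, while the GFP-positive circles lie on both sides of the GFP-negative ones. *Rsph6a* is at 0 TPM in all libraries.

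The promoters of the members were searched for letters known from ciliary genes, as regulatory factor X (RFX) proteins bind a pair of half-sites and *Foxj1* is a forkhead factor of motile cilia. RefSeq windows (GRCm38.p6) from 250 bases before to 50 bases after the start site were found for 46 members. The half-site GTTGCC, searched on both strands, was in the windows of 16 of 46 members and of 14.1% of 27025 genes. The forkhead letters TGTTTAC, also on both strands, were in those of 4 members and 4.05% of genes. A strict X-box, GTTNCC and its reverse complement GGNAAC with 2 bases between, was in none of the 46 and in 0.529% of genes. After the letters of several windows had been seen, a looser form was searched, GTTGC followed by GCAAC with 2 to 4 bases between, which reads the same on both strands and can overlap the half-site. It was in the windows of 8 of 46 members and of 0.459% of genes. Because the form was chosen from windows of these same members, the contrast of these shares is a description only.

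The stretches of 6 of these genes are shown with 15 bases on each side. The windows of most members do not hold this form. Those of *Dnah7b* and *Rsph3b* lie for the most part in annotated exons and are not shown. Capitals mark the looser form from GTTGC to GCAAC with the bases between, and each line is the strand of the gene from 5′ to 3′. In order, the windows lie at chr16:44394757-44394800 (plus strand), chr6:73221640-73221682 (minus), chr1:53706814-53706856 (minus), chr11:114727371-114727413 (plus), chr4:126325690-126325732 (minus) and chr17:25471539-25471581 (plus).
Cfap44: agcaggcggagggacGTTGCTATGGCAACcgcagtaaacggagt
Dnah6: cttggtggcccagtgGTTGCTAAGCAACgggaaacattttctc
Dnah7a: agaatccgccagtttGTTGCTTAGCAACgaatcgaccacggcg
Dnaic2: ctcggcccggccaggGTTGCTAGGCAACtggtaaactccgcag
Tekt2: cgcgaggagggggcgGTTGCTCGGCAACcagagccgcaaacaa
Tekt4: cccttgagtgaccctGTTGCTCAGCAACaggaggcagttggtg

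In 7 of the 8 genes the bases between GTTGC and GCAAC number 3, and in *Cfap44* they number 4. *Dnah7a* and *Dnah7b* share much of their sequence and do not count as independent. Of the 8 genes, 5 were higher in both lines, beside 19 of all 50 members above 0 TPM and 7.77% of 16298 genes. The log2 fold changes of the 8 genes ranged from -1.09 (*Cfap44*) to 5.27 (*Dnah6*, 8.52 with a pseudocount of 0.1 and 2.25 with 10) in GFP-positive cells and from 0.93 (*Cfap44*) to 5.94 (*Dnah6*) in tdTomato-positive cells. *Cfap44*, abundant in reporter-negative cells at 121.5 (GFP) and 165.3 TPM (tdTomato), and *Dnah6*, at 0.0028 and 3.05 TPM there, thus both have this form close to the start site. A match describes the letters only, and binding was not measured.

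The heavy chains of the outer arm separated into genes that were scarce and genes that were present in reporter-negative cells. *Dnah5*, which lies on chromosome 15 (GRCm38, 28203752 to 28472052, plus strand), was at 1.55, 45.4, 7.75 and 354 TPM, with log2 fold changes of 4.18 and 5.34. *Dnah9* was at 7.69, 38.2, 12.2 and 262.9 TPM, with log2 fold changes of 2.17 and 4.32. Both motors were therefore lowest in the GFP-negative library and highest in the tdTomato-positive library.

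*Dnah11*, the outer arm heavy chain of the ciliary base, had another pattern. It was at 37.4 (GFP) and 50.5 TPM (tdTomato) in reporter-negative cells, the highest values of any heavy chain in these 2 libraries. In GFP-positive cells it was at 14.8 TPM, a log2 fold change of -1.28 that was within 2-fold with the median-ratio scaling (-0.43) and without the highest genes (-0.80) and positive (1.64) when the libraries were scaled to mature OSN markers. In tdTomato-positive cells it was at 99.4 TPM, a log2 fold change of 0.96 that was 1.11, 1.02 and 1.93 with the same scalings, past 2-fold in each. *Dnah8* and *Dnah17*, outer arm heavy chains known mainly from sperm, did not share the high values of *Dnah5* and *Dnah9* in reporter-positive cells. *Dnah8* was at 3.58, 0.478, 2.01 and 0.746 TPM. *Dnah17* was at 0.233, 0.0836, 0.768 and 0 TPM.

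All 6 heavy chains of inner arms were higher in tdTomato-positive cells (16.2% of all genes) and 5 of them in GFP-positive cells (12.8%). With each of the 3 scalings all 6 were higher in GFP-positive cells. With a pseudocount of 10, however, *Dnah2* (0.41), *Dnah7a* (0.39) and *Dnah7b* (0.54) were within 2-fold there. *Dnah6*, whose promoter stretch is printed above, was listed at 0.0028 and 3.05 TPM in GFP-negative and tdTomato-negative cells and reached 37.6 and 246.8 TPM in the matching reporter-positive cells. *Dnah10*, a heavy chain of the double-headed inner arm, was at 0.658 and 1.17 TPM in the reporter-negative libraries and at 24 and 136.9 TPM in GFP-positive and tdTomato-positive cells, respectively. Its partner *Dnah2* was less far apart, at 4.09, 8.77, 4.33 and 65.7 TPM, with log2 fold changes of 0.94 and 3.65. No inner arm heavy chain exceeded 5 TPM in a reporter-negative library.

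The single-headed inner arm motor *Dnah1* was listed at 0 in GFP-negative cells and was at 11.2, 3.46 and 61.7 TPM in the GFP-positive, tdTomato-negative and tdTomato-positive libraries. *Dnah7a* and *Dnah7b* were lower than the other inner arm chains in both reporter-positive libraries. *Dnah7b* was at 0.816, 5.70, 1.26 and 22.4 TPM, and *Dnah7a* at 0.617, 3.90, 1.73 and 13.8 TPM. These genes share 48.4% (*Dnah7b*) and 40.3% (*Dnah7a*) of their 50-base windows with other transcripts, mainly with each other and *Dnah7c*, so the split of reads among them depends on the authors' tools.

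Heavy chain transcripts are long, between 12245 bases (*Dnah7a*) and 16685 bases (*Dnah8*) for the longest annotated transcript, and fold changes moved with length in the TAAR enhancer 1-GFP line. Among 228 other genes of at least 10000 bases with at least 10 TPM in either library, the median log2 fold change in the TAAR enhancer 1-GFP line was -1.35, compared with -0.66 for 2624 genes under 2000 bases. The median of the 11 heavy chains in that line was 1.88, and the heavy chains were taken here and below without the minimum of 10 TPM. In the TAAR enhancer 2-tdTomato line, the medians of long and short genes were -0.25 and -0.19, and the heavy chains had a median of 3.65. The 2 reporter-positive libraries also differed with length. The log2 ratio of tdTomato-positive to GFP-positive cells had a median of 1.67 over 237 other long genes, 0.47 over 2391 genes under 2000 bases, and 2.47 over the 11 heavy chains. The part of length in the values of the heavy chains was not tested further.

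**Figure D2:**
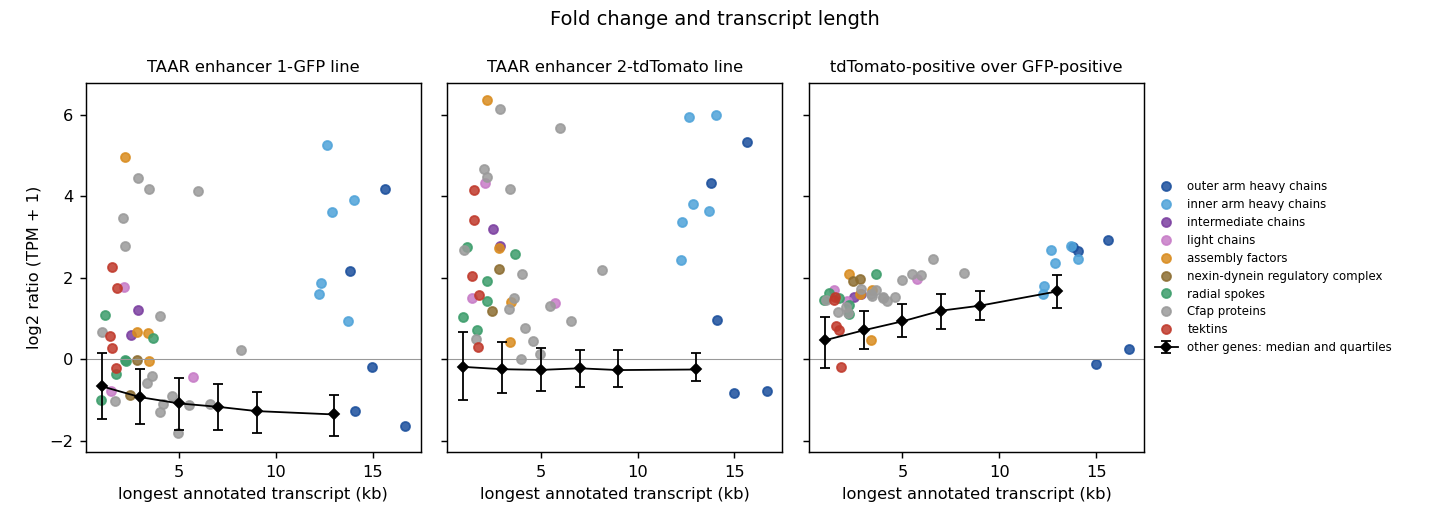
Log2 ratio of TPM + 1 against the longest annotated transcript in kb for each member above 0 TPM, colored by role, in the 2 lines and between the reporter-positive libraries. Black diamonds are medians of other genes with at least 10 TPM in either library, with quartiles as bars, in length bins of 2 kb, and the last diamond stands for all genes of at least 10 kb and is drawn at a set place. The diamonds fall with length in the TAAR enhancer 1-GFP line (from -0.66 to -1.35), are nearly level in the TAAR enhancer 2-tdTomato line, and rise in the third panel (from 0.47 to 1.67).

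Intermediate and light chains were present in all 4 libraries. *Dnaic2*, an outer arm intermediate chain, was at 34.6, 81.5, 35.8 and 250.7 TPM. *Dnaic1*, its partner in the arm, was at 31.2, 47.9, 14.6 and 140.6 TPM. Both were higher in tdTomato-positive cells (log2 fold changes of 2.77 and 3.19), and in GFP-positive cells the values were 1.21 for *Dnaic2* and 0.60 for *Dnaic1*. That of *Dnaic1* passed 2-fold with the median-ratio scaling (1.47), without the highest genes (1.10) and when scaled to mature OSN markers (3.56).

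The 3 light chains fell into unlike patterns in the TAAR enhancer 1-GFP line. *Dnali1*, a light intermediate chain of inner arms, was at 36.3, 127.1, 16 and 342.9 TPM. *Dnal4* was at 95.9, 55.3, 62.8 and 180.8 TPM. *Dnal1*, a light chain that binds the outer arm motor, was at 33.6, 24.6, 37.1 and 98.7 TPM. The log2 fold changes of *Dnal4* (-0.78) and *Dnal1* (-0.43) in the TAAR enhancer 1-GFP line were within 2-fold, and they were positive with the median-ratio scaling and with the scaling to mature OSN markers.

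Among the assembly factors, 1 of 4 was higher in GFP-positive (12.8% of all genes) and 3 in tdTomato-positive cells (16.2%) as deposited. With the median-ratio scaling and without the highest genes 3 were higher in GFP-positive cells, and 4 when scaled to mature OSN markers. *Dnaaf3* stood apart from the others. It was at 1.00, 61.3, 2.25 and 266.7 TPM, with log2 fold changes of 4.96 and 6.36. *Dnaaf1* was at 16.9, 27.3, 11.9 and 84.6 TPM, and *Dnaaf5* at 30.2, 29.5, 36.2 and 98 TPM. *Dnaaf2* was at 12.3, 19.8, 20.5 and 27.8 TPM. Its log2 fold change in the TAAR enhancer 1-GFP line, 0.65 as deposited, was 1.49 with the median-ratio scaling, 1.14 without the highest genes and 3.52 when scaled to mature OSN markers, and 68.1% of its windows are shared with overlapping or neighboring transcripts.

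The radial spoke genes and the nexin-dynein regulatory complex were abundant in reporter-negative cells. *Rsph1*, a protein of the spoke head, was at 148.5, 314.1, 142.4 and 967.5 TPM. *Rsph9*, another head protein, was at 314.5, 155.6, 208.3 and 426.6 TPM. It was thus lower in one line (log2 fold change -1.01) and higher in the other (1.03) as deposited. The first value was within 2-fold with the median-ratio scaling (-0.13), without the highest genes (-0.51) and with a pseudocount of 10 (-0.97), and it was positive when scaled to mature OSN markers (2.00).

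The third head protein, *Rsph4a*, was at 58.5, 84.2, 58.8 and 359.6 TPM. Its paralog *Rsph6a*, known from sperm, is the member listed at 0 everywhere. The stalk gene *Rsph3a* was at 70.9, 70.0, 46 and 176.9 TPM, and *Rsph14* at 72.7, 56.4, 97.95 and 162.7 TPM. *Rsph3a* and its copy *Rsph3b* share 78.2% and 77.7% of their windows with other transcripts, so their separate levels are uncertain. Of the 6 spoke genes above 0 TPM, 1 was higher and 1 lower in GFP-positive cells as deposited (12.8% and 40.5% of all genes). In tdTomato-positive cells 5 were higher as deposited (16.2% of all genes). In GFP-positive cells 2 were higher and 0 lower with the median-ratio scaling and without the highest genes, and 6 and 0 when scaled to mature OSN markers. *Drc1*, which links neighboring doublets, was at 194.2, 104.7, 174.9 and 396.3 TPM. *Drc7* was at 58.7, 57.5, 48.8 and 229.1 TPM.

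The 17 *Cfap* genes, which are named for cilia and flagella and have diverse roles, included the most abundant members. *Cfap126*, the doublet protein also called Flattop, was at 234.8, 370.9, 157.2 and 1016 TPM. *Cfap20*, a protein of the junction between the doublet tubules, was at 425.1, 199.7, 317.1 and 543.2 TPM. *Cfap69*, which has a known role in the cilia of OSNs, was at 404.7 (GFP) and 406.7 TPM (tdTomato) in reporter-negative cells. It was at 114.4 TPM in GFP-positive cells, with a log2 fold change of -1.81 that was -0.93 with the median-ratio scaling and 1.19 when scaled to mature OSN markers, and at 446.1 TPM in tdTomato-positive cells (0.13).

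Also lower in GFP-positive cells were *Cfap36*, a protein of cilia, and *Cfap61*, which belongs to the radial spokes. *Cfap36* was at 282.9, 137.8, 219.2 and 308.1 TPM, and *Cfap61* at 34.4, 13.4, 39.9 and 40.0 TPM. The other *Cfap* genes differed widely, and those named next were chosen after their values were seen. *Cfap221*, a central pair protein, was at 0, 20.7, 0 and 70.2 TPM. *Cfap53* was at 2.52 and 2.70 TPM in the reporter-negative libraries, 37.9 TPM in GFP-positive and 93.3 TPM in tdTomato-positive cells. *Cfap45*, a protein inside the doublet, was at 4.59, 99.4, 15.1 and 291.9 TPM. *Cfap52*, also inside the doublet, was at 16.2, 117.7, 10.9 and 261.9 TPM. All 4 were higher in both lines, unlike most of the remaining *Cfap* genes, *Cfap57*, *Cfap46*, *Cfap70*, *Cfap58* and *Cfap97*. Their log2 fold changes were 1.06, 0.22, -0.42, -0.57 and -0.90 in GFP-positive cells. All of these but *Cfap97* (0.45) were higher in tdTomato-positive cells.

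*Cfap43* and *Cfap44* encode partners that tether the double-headed inner arm to the doublet, yet they had unlike levels in reporter-negative cells. *Cfap43* was at 4.72, 98.4, 7.06 and 413.6 TPM. *Cfap44* was at 121.5, 56.5, 165.3 and 315.2 TPM. Of the 17 *Cfap* genes, 6 were higher and 6 lower in GFP-positive cells, where 12.8% of all genes were higher and 40.5% lower. In tdTomato-positive cells 11 were higher and 0 lower, beside 16.2% and 21.9% of all genes. The 6 that were lower in GFP-positive cells (*Cfap20*, *Cfap36*, *Cfap44*, *Cfap61*, *Cfap69* and *Cfap74*) had log2 fold changes from -0.93 to -0.15 under the median-ratio scaling, where 0 of the 17 were lower. Without the highest genes they ranged from -1.31 to -0.53, and 1 was lower (*Cfap69*). All 6 were positive under the scaling to mature OSN markers.

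The tektins, filament proteins of the doublet wall, ranged from high to near 0. As deposited, 2 of 5 were higher in GFP-positive (12.8% of all genes) and 4 in tdTomato-positive cells (16.2%). In GFP-positive cells 4 were higher with the median-ratio scaling, 3 without the highest genes and 5 when scaled to mature OSN markers. *Tekt1* was at 74.3, 110.2, 72 and 302.2 TPM. *Tekt4* was at 13.8, 70.5, 10.7 and 206.7 TPM, and *Tekt2* at 28.5, 34.7, 4.86 and 61.4 TPM. *Tekt2* was the 1 member at least 4-fold lower in tdTomato-negative than in GFP-negative cells, and 15.5% of its windows are shared with a gene on the opposite strand. *Tekt3* was between 3.83 and 6.90 TPM in all libraries. *Tekt5*, known mainly from sperm, was at 0, 2.38, 0 and 1.96 TPM. Its place among the higher members of both lines rests on these low values. With a pseudocount of 10 its log2 fold change in GFP-positive cells was 0.31, against 1.76 as deposited.

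**Figure D3:**
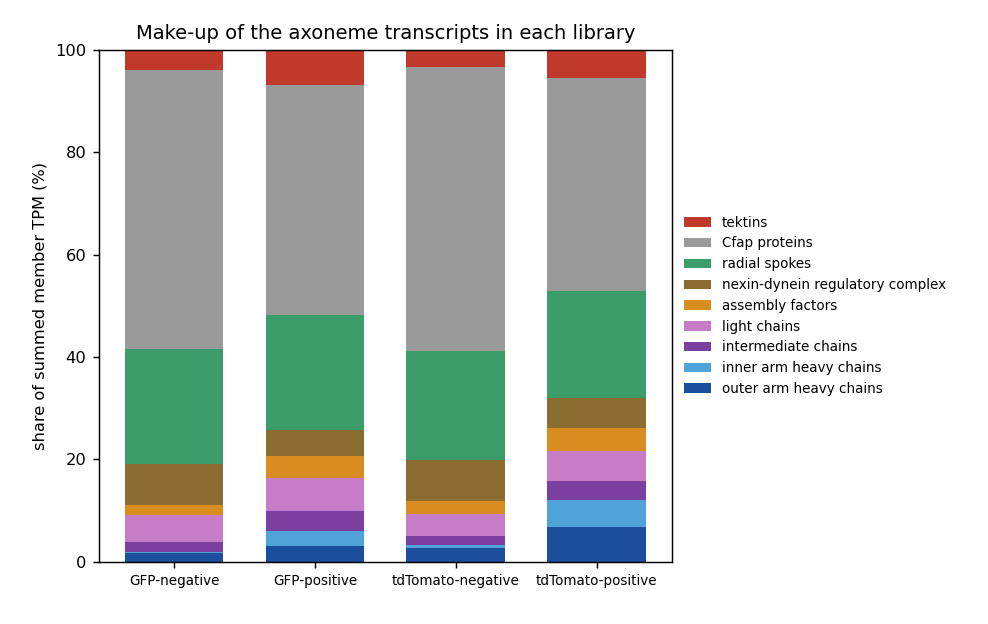
Share of the summed TPM of the 51 members held by each role in each library, in percent. The outer and inner arm heavy chains at the bottom of the bars together take 1.79% in GFP-negative, 5.92% in GFP-positive, 3.19% in tdTomato-negative and 12% in tdTomato-positive cells. The *Cfap* genes take 54.7% and 55.5% in the reporter-negative libraries and 44.8% and 41.7% in the reporter-positive ones.

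The make-up of the axoneme transcripts within a library does not depend on how libraries are scaled. The summed TPM of the members was 3163, 3214, 2764 and 10544. Within these sums, inner arm heavy chains held 0.196%, 2.84%, 0.542% and 5.19%, and radial spokes 22.5%, 22.6%, 21.3% and 20.8%. Unlike the shares, the sums depend on scaling. In the TAAR enhancer 1-GFP line the log2 ratio of the sums was 0.02 as deposited, 0.53 without the highest genes, 0.91 with the median-ratio scaling and 3.04 when scaled to mature OSN markers.

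Ratios between pairs of members were computed for 13 pairs, which were chosen, with the order within a pair, after the values were seen. In 12 of them the ratio was higher in reporter-positive than in reporter-negative cells of both lines. The exception was *Dnaic2* over *Dnaic1*, at 1.11 and 1.70 in GFP-negative and GFP-positive cells and at 2.46 and 1.78 in the tdTomato libraries. *Dnah5* had 0.0415 times the TPM of *Dnah11* in GFP-negative and 0.154 times in tdTomato-negative cells, and 3.06 and 3.56 times in GFP-positive and tdTomato-positive cells. The ratio of *Cfap43* to *Cfap44* was 0.0388 and 0.0427 in the reporter-negative libraries and 1.74 and 1.31 in GFP-positive and tdTomato-positive cells. The ratio of *Dnaaf3* to *Dnaaf5* was 0.0332 and 0.0622 in reporter-negative and 2.08 and 2.72 in reporter-positive cells. Smaller differences were found for *Rsph1* over *Rsph9* (0.472 and 0.684 against 2.02 and 2.27) and for *Dnali1* over *Dnal4* (0.379 and 0.255 against 2.30 and 1.90). As the pairs were picked for this, their agreement is a description only.

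The levels of the members were ordered alike in libraries of the same kind. Across the 51 members, the Spearman rho between GFP-negative and tdTomato-negative cells was 0.96, and between GFP-positive and tdTomato-positive cells it was 0.93, beside 0.91 and 0.89 over the 18417 genes above 0 TPM in any library. Within a line the rho between reporter-positive and reporter-negative cells was 0.68 for the TAAR enhancer 1-GFP line and 0.64 for the TAAR enhancer 2-tdTomato line, beside 0.75 and 0.79 over all genes. The log2 fold changes of the 2 lines had a rho of 0.90 over the 50 members and 0.50 over all genes. These values are descriptions across genes, which share libraries and transcript lengths and are not independent replicates.

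Both lines placed 19 members as higher, as they did 7.77% of the 16298 genes above 0 TPM in both lines. Another 17 members, and 6.6% of these genes, were within 2-fold in the TAAR enhancer 1-GFP line and higher in tdTomato-positive cells. A further 7 members, and 26% of genes, were lower in GFP-positive cells and within 2-fold in the TAAR enhancer 2-tdTomato line, namely *Cfap20*, *Cfap36*, *Cfap44*, *Cfap61*, *Cfap69*, *Dnah11* and *Dnah8*. The 2 members that were lower in GFP-positive and higher in tdTomato-positive cells were *Rsph9* and *Cfap74*, as were 1.63% of genes, and 5 members and 33.2% of genes were within 2-fold in both lines. These counts hold for the values as deposited. In the direct comparison, 44 of 50 members had at least 2-fold more TPM in tdTomato-positive than in GFP-positive cells, where 30.5% of all genes did, and the median log2 ratio was 1.59 beside 0.55 for all genes. At least 4-fold more was measured for 13 members and 5.84% of all genes. No member was at least 2-fold lower, against 10.2% of all genes (3.83% at least 4-fold). This comparison is given on the deposited scale only. There, mature OSN markers summed to 3507 TPM in GFP-positive and 14494 TPM in tdTomato-positive cells, and the members to 3214 and 10544 TPM. Between the reporter-negative libraries, 4 of 48 members were at least 2-fold higher and 3 lower in tdTomato-negative cells, with 10.6% and 11.5% of all genes. At least 4-fold apart were 2 members upward and 1 downward, beside 3.34% and 4.44% of all genes.

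**Figure D4:**
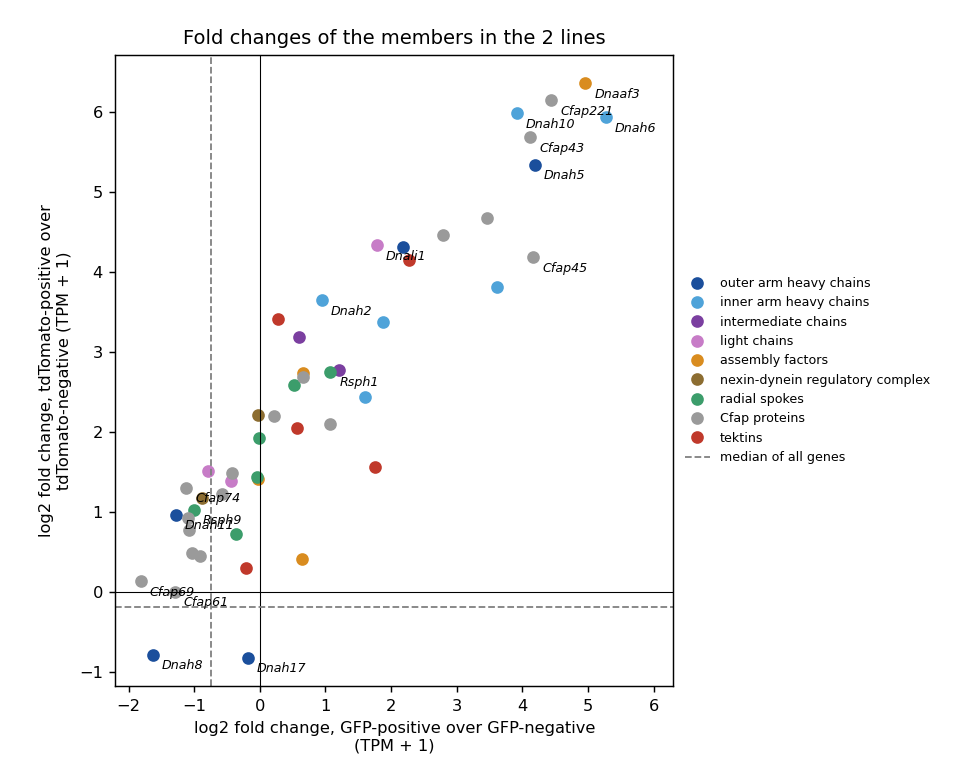
Log2 fold change of TPM + 1 in the TAAR enhancer 1-GFP line (horizontal) and the TAAR enhancer 2-tdTomato line (vertical) for the 50 members above 0 TPM, colored by role. Dashed lines are the medians over all genes, -0.74 and -0.19. *Dnaaf3*, *Dnah6*, *Dnah10*, *Dnah5*, *Cfap43* and *Cfap221* lie at the upper right, and *Cfap69*, *Cfap61*, *Dnah11* and *Dnah8* lie at the lower left.

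Genes of the axoneme outside the symbols of the rule were also mixed. Of 43 such genes in 5 lists of docking, assembly, ruler and nexin, central pair, and spoke and doublet proteins, 42 were above 0 TPM in each line. In tdTomato-positive cells 30 were higher and 2 lower (median log2 fold change 1.52), beside 16.2% and 21.9% of all genes. In GFP-positive cells 13 were higher and 6 lower (median 0.11), beside 12.8% and 40.5%. These counts are for the values as deposited. The summed TPM of the 43 genes was 2549, 2354, 2569 and 7252. By list, the higher counts in the TAAR enhancer 1-GFP line and the TAAR enhancer 2-tdTomato line were 2 and 4 of 5 docking genes, 1 and 5 of 6 assembly genes, 1 and 4 of 8 ruler and nexin genes, 4 and 6 of 9 central pair genes, and 5 and 11 of 14 spoke and doublet genes. The lower counts, in the same order, were 0 and 0, 0 and 0, 3 and 0, 1 and 1, and 2 and 1.

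In the central pair list, *Ak7*, an adenylate kinase of the axoneme, was at 1.81 and 3.19 TPM in reporter-negative and at 99.1 and 389.7 TPM in GFP-positive and tdTomato-positive cells. *Spag16* was at 7.98, 53.7, 11.5 and 211.5 TPM. *Ak8*, a related kinase, was at 64.8, 55.8, 50.01 and 199 TPM. In the same list, *Spef2* was lower in GFP-positive cells (log2 fold change -1.85) and *Spag6l* in tdTomato-positive cells (-1.60). Dyneins outside the motile axoneme were counted for contrast. Of 10 genes of cytoplasmic dynein 1, which carries cargo in all cells, 0 were higher and 8 lower in GFP-positive cells, and 1 was higher and 0 lower in tdTomato-positive cells (medians of -1.25 and -0.30). Of 4 genes of dynein 2, the motor of retrograde transport within cilia, 0 were higher and 2 lower in GFP-positive cells, and 3 were higher in tdTomato-positive cells (medians of -0.66 and 1.02). The counts of both dyneins hold for the deposited scale. On it, 12.8% of all genes were higher and 40.5% lower in GFP-positive cells, and 16.2% and 21.9% in tdTomato-positive cells.

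**Figure D5:**
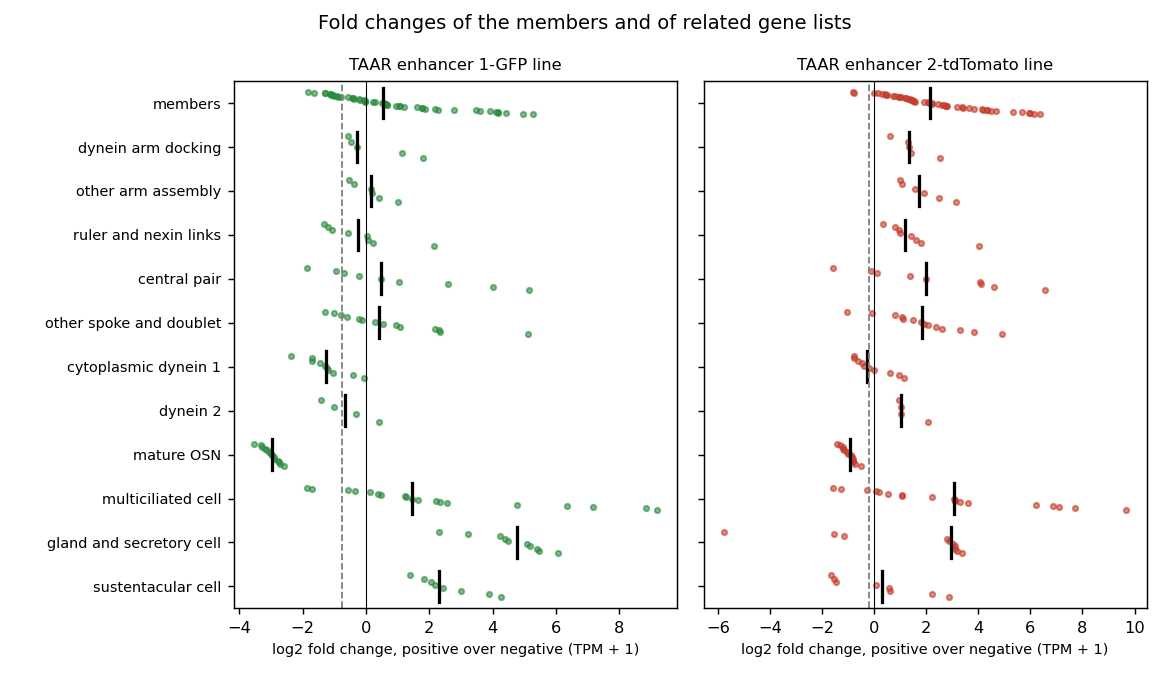
Log2 fold change of TPM + 1 for each gene of the members and of related lists in both lines. Points are genes, bars are medians and the dashed line is the median over all genes. Medians of the members are 0.54 and 2.15, those of the multiciliated cell list outside the members 1.45 and 3.07, and those of mature OSN markers -2.97 and -0.94.

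Markers of cell types differed between the libraries as well, some in the same direction as the members and some not. Mature OSN markers, which should mark the sensory neurons, were lower for 14 of 14 genes in GFP-positive and 6 of 14 in tdTomato-positive cells, with summed TPM of 30567, 3507, 31541 and 14494. None of them was at 0. Of 19 multiciliated cell genes that are not members, 12 were higher and 2 lower in GFP-positive cells and 13 were higher and 2 lower in tdTomato-positive cells, with summed TPM of 7481, 5912, 6715 and 15657. The tubulins *Tuba1a* and *Tubb4b* hold most of the sums of the reporter-negative libraries but not of the reporter-positive ones, and the other 17 genes sum to 686.4, 3295, 673.4 and 10384. *Foxj1*, the factor named above, was at 126.3, 302.2, 114.3 and 975.5 TPM. The summed TPM of the members was 25 and 24.2 times that of *Foxj1* in the reporter-negative libraries and 10.6 and 10.8 times in GFP-positive and tdTomato-positive cells.

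*Ccdc153*, a gene known from multiciliated cells and named after its values were seen, was at 0, 582.8, 13.6 and 2010 TPM. Other genes of that list went the other way. *Rfx3* (log2 fold change -1.87) and *Tuba1a* (-1.71) were lower in GFP-positive cells, and *Gmnc* (-1.30) and *Spag6l* (-1.60) in tdTomato-positive cells. In GFP-negative cells *Gmnc*, *Ccdc153* and *Spag6l* were at 0, in tdTomato-negative cells *Mcidas*, and in tdTomato-positive cells *Spag6l*. Of the gland and secretory cell genes, 10 of 10 above 0 TPM were higher in GFP-positive cells, and 7 were higher and 3 lower in tdTomato-positive cells. Their summed TPM was 4662, 173507, 7975 and 62558, and *Scgb1a1* and *Scgb3a2* were at 0 in all libraries. The counts of higher and lower genes in GFP-positive and then tdTomato-positive cells were 8 and 0, then 2 and 3, of 8 sustentacular cell markers, and 4 and 0, then 1 and 4, of 5 horizontal basal cell markers.

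The remaining lists gave, in the same order, 0 and 6, then 0 and 3, of 6 immature OSN markers, and 2 and 4, then 0 and 5, of 6 markers of globose basal cells and precursors. Of 6 microvillar cell and ionocyte markers, 3 were higher and 1 lower, then 0 and 3. Of 7 immune markers above 0 TPM, 0 were higher and 6 lower, then 1 and 6, with *Hbb-bs* and *Hba-a1* at 0 in all libraries, and of 6 markers of stroma and endothelium 2 were higher and 2 lower, then 0 and 2. The part of other cell types, of library make-up and of RNA quality in the values of the axoneme genes was not tested.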

How the data were processed

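The deposited values are TPM for 24421 genes named by symbol in 4 libraries, and the authors scaled each library to a total of 1000000. The submitters' processing notes name Trimmomatic 0.36, Salmon 1.4.0 and mm10, while the study's methods name Hisat2 and Cufflinks for RNA-seq. Which of them gave these values, the gene annotation and any filter are not given in the sources used here. The methods also name Smart-seq2 and the labels other kits. TPM keeps no depth, so no intervals or limits of detection were calculated.

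Members were found by symbol. The members, the gene lists, the named genes and the alternatives were chosen with earlier results of these data known. Every member could be named, with values for dynein chains, for up to 5 members per role by highest TPM, and for members that were lower or opposite. Values of *Cfap* genes outside this rule were added after they were seen. A pseudocount of 1 was used, and genes at 0 TPM in both libraries of a line were left out of its counts. With 1 library per group no test was run. Alternatives were pseudocounts of 0.1 and 10, minimum values of 1 and 5 TPM, members without *Cfap* genes, and 3 scalings. These were the median ratio over the 11943 genes that reached 1 TPM in every library, rescaling without the 24 genes among the 10 highest of any library, and equal mean log2(TPM) over 14 mature OSN markers. Members sharing at least 10% of their 50-base windows with other transcripts, 8 in all, were left out in an alternative added after seeing the data. The multiciliated list without its 2 tubulins was added in the same way. Positions, lengths and windows are from GENCODE M21 (GRCm38, also called mm10), in which all 51 members were found, and promoters from RefSeq (GRCm38.p6). The fold change calculation was tested on simulated data. Python 3.11.15, NumPy 2.4.6, pandas 2.3.3 and matplotlib 3.10.9 were used.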

Additional observations from a re-analysis of the deposited data

Results flagged for a closer look

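*Rsph9* and *Cfap74* were at least 2-fold apart in opposite directions in the 2 lines. The log2 fold changes of *Rsph9*, a radial spoke head protein, were -1.01 (TAAR enhancer 1-GFP line) and 1.03 (TAAR enhancer 2-tdTomato line). Those of *Cfap74*, a central pair protein, were -1.13 and 1.30, with 41.9 and 18.7 TPM in GFP-negative and GFP-positive cells and 33.1 and 83.1 TPM in tdTomato-negative and tdTomato-positive cells. The first value of each rests on the deposited scale. For *Rsph9* and *Cfap74* it was -0.13 and -0.27 with the median-ratio scaling, -0.51 and -0.64 without the highest genes, and 2.00 and 1.81 when scaled to mature OSN markers. The difference between the lines was not tested, as each group has 1 library. Relative to the all-gene medians, the values in the TAAR enhancer 1-GFP line were -0.27 for *Rsph9* and -0.38 for *Cfap74*.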

How the results depend on the processing

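A log2 value is said to have moved when it changed by more than 0.58, and a count when it changed by more than 1.5 times. No paired analysis was possible because the labels give no replicate numbers and each comparison sets 1 library against 1. A fit over all 4 libraries with the line as a block would take the 2 transgenes as replicates of each other, and it was not run. The count of members higher in tdTomato-positive cells did not move under any alternative, and that in GFP-positive cells moved only with the scaling to mature OSN markers, to 48.

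In the TAAR enhancer 1-GFP line, 9 members were lower as deposited. The count was 2 with a pseudocount of 10, 3 without *Cfap* genes (which leaves 33 members above 0 TPM), 1 with the median-ratio scaling, 2 after rescaling without the highest genes and 0 when scaled to mature OSN markers. The median log2 fold change of the members, 0.54 as deposited, was 1.42 with the median-ratio scaling and 3.50 when scaled to mature OSN markers. The log2 ratio of summed TPM, 0.02 as deposited, was 0.91 and 3.04, and it was -0.02 without the members that share sequence, a change within the limit. Scaled to mature OSN markers, the log2 fold changes of the lower members turned positive: *Cfap20* (1.93), *Cfap36* (1.98), *Cfap44* (1.90), *Cfap61* (1.61), *Cfap69* (1.19), *Cfap74* (1.81), *Dnah11* (1.64), *Dnah8* (0.0749) and *Rsph9* (2.00).

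In the TAAR enhancer 2-tdTomato line, 2 members were lower with a pseudocount of 0.1, against 0 as deposited. These were *Dnah17* (-3.12, against -0.82) and *Dnah8* (-1.32, against -0.79), both under 3 TPM in that line, where a smaller pseudocount by construction gives a larger fold change. Scaled to mature OSN markers, the median was 3.04 and the log2 ratio of summed TPM was 2.92, against 2.15 and 1.93. The fold changes of members near 0 in reporter-negative cells depend most on the pseudocount. With 0.1 and 10, the log2 fold changes in the TAAR enhancer 1-GFP line were 8.52 and 2.25 for *Dnah6*, 6.82 and 1.08 for *Dnah1*, 4.99 and 1.67 for *Dnah10*, 4.78 and 2.26 for *Dnah5*, and 5.80 and 2.70 for *Dnaaf3*, so no order among these members is given. Unknown depth limits the members with low values most, such as the heavy chains near 0 in reporter-negative cells.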
